A study of Mus musculus with 45 samples.

Results

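The genes described here are 10 transcripts of the mouse two-cell embryo, Zscan4c, Zscan4d, Zscan4f, Zfp352, Tcstv1, Tcstv3, Tdpoz1, Tdpoz3, Tdpoz4 and Sp110, which were picked by symbol out of 55385 genes quantified in 18 RNA-seq libraries. The libraries form part of a study of GABPA, an ETS-family transcription factor, in early mouse development. All 18 came from Gabpa-dTAG/dTAG material, in which a degradation tag is fused to both copies of GABPA, so the DMSO controls carry the tag as well. In each stage, libraries treated with dTAG13, a small molecule that recruits tagged GABPA for proteolysis, were compared with libraries given the solvent DMSO. Late two-cell embryos (3 libraries per treatment) received 1 µM dTAG13 from 6 to 30 h after fertilization (hpf). Morulae (2 per treatment) were exposed from the four-cell stage at 42 hpf. Inner cell masses labelled E4.5 ICM (2 per treatment) were exposed from 84 hpf and isolated by immunosurgery, and they hold both epiblast and primitive endoderm. The study's text places their collection at the mid-blastocyst stage, at 100 hpf, while the label reads E4.5. Embryos came from in vitro fertilization with oocytes of superovulated females aged 7 to 8 weeks and sperm of males aged 8 to 12 weeks. The embryonic stem cells (2 per treatment), grown in 2i medium and called 2iES cells, were derived as single clones and received 0.5 µM dTAG13 for 24 h. The study calls its replicates biological, and those of ICM and 2iES cells independent, but neither it nor the labels say which embryo pools or cultures were separate. Every p-value therefore measures the spread between these libraries, which may be technical.

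Mouse embryos switch on their own genome at the two-cell stage, and a set of genes and retroelements is transcribed in a short burst there and then silenced. The members belong to that burst. Zscan4 genes encode zinc-finger proteins with a SCAN domain that act at telomeres and heterochromatin. Zfp352 encodes a zinc-finger DNA-binding protein derived from a retroposed copy, the Tdpoz genes encode proteins with TRAF and BTB/POZ domains, the Tcstv genes encode small proteins of the two-cell stage, and Sp110 encodes a nuclear body protein. A small, changing fraction of cultured embryonic stem cells re-enters a two-cell-like state with high Zscan4. In bulk libraries fewer cells in that state and less RNA per cell cannot be told apart.

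The members lie in clusters of near copies. Zscan4c (ENSMUSG00000054272.6, GRCm38 chromosome 7, 11005745 to 11010547, + strand), Zscan4d (ENSMUSG00000090714.10, 11161374 to 11166159, - strand) and Zscan4f (ENSMUSG00000070828.10, 11397915 to 11402318, + strand) share one cluster. Tdpoz1 (93669333 to 93676310, - strand), Tdpoz4 (93796398 to 93797510, + strand) and Tdpoz3 (93826020 to 93827117, + strand) lie on chromosome 3. Tcstv1 (119893388 to 119894785, - strand) and Tcstv3 (120316878 to 120318178, + strand) lie on chromosome 13, Zfp352 on chromosome 4 (90218820 to 90225702, + strand) and Sp110 on chromosome 1 (85576899 to 85598817, - strand). The coding sequences of Zscan4c and Zscan4f, each 1518 bases, differed at 6 bases, an identity of 99.6%, whereas Zscan4d differed from each of them at 35 bases (97.7%). The closeness sets how far a read can name its gene: of 1444 windows of 75 bases, one read length, 76.2% were the same in Zscan4c and Zscan4f, 30.7% in Zscan4c and Zscan4d and 32.8% in Zscan4d and Zscan4f. The 75-base stretch of the coding sequence with the most differences among the 3 genes, bases 1046 to 1120 in 1 exon, is shown because within it a read can separate all 3 copies; capitals mark the 8 positions that are not the same in all 3 genes.
Zscan4c chr7:11009521-11009595 (+): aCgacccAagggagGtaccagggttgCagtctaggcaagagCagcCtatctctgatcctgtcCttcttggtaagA
Zscan4d chr7:11162322-11162396 (-): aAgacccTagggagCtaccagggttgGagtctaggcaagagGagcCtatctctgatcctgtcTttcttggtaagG
Zscan4f chr7:11401714-11401788 (+): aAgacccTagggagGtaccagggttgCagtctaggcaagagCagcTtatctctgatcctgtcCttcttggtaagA

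Over whole annotated transcripts, the share of 31-base words found in no other gene of GENCODE M21 was 8.5% for Zscan4c, 8.3% for Zscan4f and 35.0% for Zscan4d. The pseudogene Zscan4-ps2 held 81.6% of the words of Zscan4c and 82.9% of those of Zscan4f. Unique words made up 78.5% for Zfp352, 71.4% for Tcstv1, 49.0% for Tcstv3, 44.5% for Sp110, 41.6% for Tdpoz1, 35.4% for Tdpoz4 and 24.3% for Tdpoz3. Tdpoz3 shared 75.7% of its words with the single gene Gm4982, and Tdpoz1 shared 57.6% with Gm9117. Tcstv1 and Tcstv3 were 93.6% identical over their coding sequences, and both also shared words with Gm21818, AF067061 and Gm21761. The counts are RSEM estimates that divide shared reads among copies, so differences between near copies are uncertain and the sum over a family was tested beside its members. These sums leave out Zscan4-ps2, Gm4982, Gm9117, Gm21818, AF067061 and Gm21761, so they still depend in part on how reads were divided.

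RefSeq start windows (GRCm38.p6) were matched for 7 of the 10 members. Their 250 bases before the start were searched on both strands for 4 words, which were chosen with these windows in view: CCGGAAG for GABPA and other ETS factors, TAATCC for OBOX homeodomain proteins, TATAAA for the TATA box and TGATTNAAT for DUX. Among 32851 windows of the same length the words were found in 6.9%, 6.3%, 12.4% and 0.7%, respectively. The windows below are shown because they carry the words, which are in capitals; the row of words before Zfp352 and the alike but shifted Zscan4c and Zscan4d windows, of which only the first holds the DUX word, are the features to compare.
Zfp352 chr4:90218570-90218819 (+): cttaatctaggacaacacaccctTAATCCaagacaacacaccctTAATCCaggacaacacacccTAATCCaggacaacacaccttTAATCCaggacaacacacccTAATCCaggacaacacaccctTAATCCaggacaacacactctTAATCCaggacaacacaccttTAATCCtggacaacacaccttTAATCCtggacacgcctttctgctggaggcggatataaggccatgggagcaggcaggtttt
Zscan4c chr7:11005495-11005744 (+): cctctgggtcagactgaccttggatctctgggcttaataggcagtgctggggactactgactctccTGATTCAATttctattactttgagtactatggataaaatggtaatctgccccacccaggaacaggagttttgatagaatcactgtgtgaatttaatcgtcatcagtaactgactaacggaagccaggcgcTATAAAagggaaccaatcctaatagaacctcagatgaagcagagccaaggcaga
Zscan4d chr7:11166149-11166398 (-): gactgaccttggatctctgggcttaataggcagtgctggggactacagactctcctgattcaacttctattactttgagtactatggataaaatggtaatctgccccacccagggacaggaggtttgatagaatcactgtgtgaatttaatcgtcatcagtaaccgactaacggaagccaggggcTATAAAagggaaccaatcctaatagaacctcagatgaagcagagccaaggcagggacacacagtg
Tdpoz1 chr3:93676284-93676533 (-): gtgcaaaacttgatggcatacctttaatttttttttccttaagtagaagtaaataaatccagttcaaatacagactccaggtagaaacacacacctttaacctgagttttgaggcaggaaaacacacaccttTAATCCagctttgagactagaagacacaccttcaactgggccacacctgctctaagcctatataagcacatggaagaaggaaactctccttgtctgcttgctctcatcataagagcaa
Sp110 chr1:85603892-85604141 (-), first of 2 starts: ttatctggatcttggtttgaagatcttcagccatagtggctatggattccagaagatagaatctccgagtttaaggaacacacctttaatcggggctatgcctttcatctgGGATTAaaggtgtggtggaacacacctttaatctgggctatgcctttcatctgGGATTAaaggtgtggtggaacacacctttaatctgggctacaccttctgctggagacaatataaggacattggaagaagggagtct

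Upstream of Zfp352 the OBOX word occurred 9 times at regular spacing, all forward, from 221 to 55 bases before the start. Sp110 held 2 reverse matches before its first start and 1 forward match before its second, and Tdpoz1 held 1. Zscan4c, Zscan4d and Zscan4f each held the TATA box word, and the DUX word matched before Zscan4c and Zscan4f but not before Zscan4d. The window of Tdpoz4 held none of the 4 words and none of the 8 windows held the ETS word, which says only that those letters are not in these 250 bases. No binding data were analysed here.

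**Figure D1:**
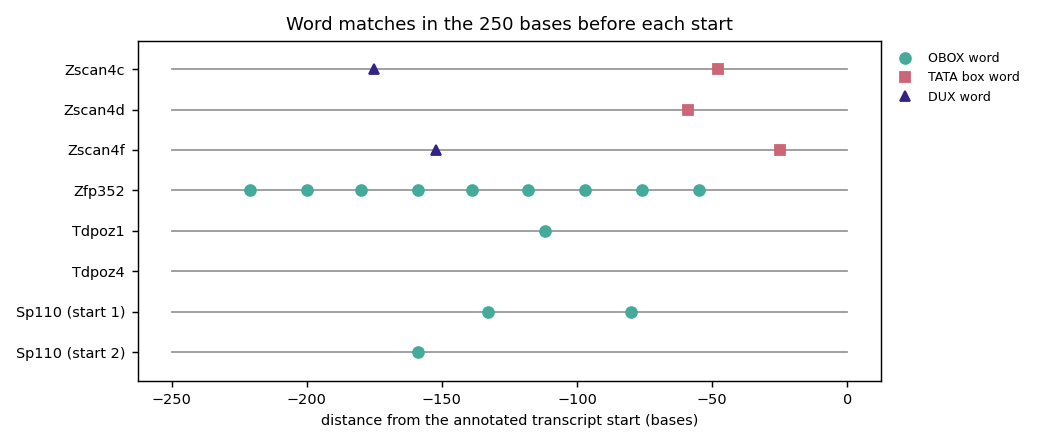
Matches to the 4 words in the 250 bases before each annotated start of 7 members (8 windows); the horizontal axis is the distance from the start in bases and each symbol is 1 match on either strand. Zfp352 carries 9 OBOX word matches in a row, no ETS word matched in any window, and Tdpoz4 has no match at all.

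The libraries held between 9457933 and 27660132 assigned read pairs, lowest in morulae. Levels are given in TPM, a share of all transcripts that corrects for length. A gene counted as called when its adjusted p was below 0.05, its level differed 2-fold or more, and the higher group averaged 1 FPKM or more, by edgeR's quasi-likelihood test on rounded expected counts with Benjamini-Hochberg adjustment over all genes tested. A group whose libraries all hold at most 3 counts is treated as at the floor, and a fold against it is given as a lower bound computed at 3 counts per library. The stage labels were checked on lists of markers. In the DMSO two-cell libraries 31 of 32 other two-cell genes had a mean of at least 1 TPM. In DMSO ICM 10 of 10 epiblast and 10 of 10 primitive endoderm markers did, and in DMSO 2iES cells 10 of 10 and 2 of 10. The epiblast list does not tell the stages apart, since 10 of 10 also did in DMSO morulae and 8 of 10 in DMSO two-cell embryos. In DMSO ICM 6 of 10 trophectoderm markers reached that level too. RNA of Gabpa itself was not lower with dTAG13, which acts on the protein and leaves RNA as no check of the depletion. It was 103 ± 14.7 TPM in DMSO and 153 ± 10.6 TPM in dTAG13 two-cell embryos (SD, n = 3; edgeR adjusted p = 0.0124, log2 fold change 0.52), and its mean was higher with dTAG13 in the other 3 stages too, by 0.74, 0.95 and 0.93 on the log2 scale.

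In DMSO embryos the members were high at the late two-cell stage and fell steeply by the morula. All 10 were called lower in morulae than in two-cell embryos (edgeR on the DMSO libraries of the 4 stages), against 27.7% of the 19830 genes tested, and their median log2 fold change was -6.66 beside -0.28 over all genes. The members were picked as genes of the two-cell burst, and Tdpoz3 and Tdpoz4 passed the count filter only through the two-cell libraries. The number of calls is therefore no result about the members. Two-cell levels spanned a wide range. Sp110 led with 414, 484 and 481 TPM, followed by Zscan4f with 84.9, 55.1 and 165 TPM and Tcstv3 with 83.0, 47.4 and 123 TPM. These 3 show the order at the top: the Sp110 libraries lie far above all others, whereas Zscan4f and Tcstv3 overlap. Tdpoz4 gave 51.8, 72.5 and 53.3 TPM, Zfp352 49.4, 38.6 and 77.1 TPM, and Tdpoz1 49.3, 45.8 and 60.2 TPM. Those 3 neighbours overlapped one another. Zscan4d (19.6, 22.2 and 51.1 TPM), Tcstv1 (25.1, 21.8 and 38.1 TPM) and Zscan4c (7.99, 7.47 and 58.6 TPM) came next and overlapped as well. Tdpoz3 was lowest, with 0.57, 1.32 and 2.35 TPM, and rests on 12.0 to 52.1 counts per library.

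The depth of the fall differed between members. Sp110 kept 77.7 and 69.8 TPM in DMSO morulae, a log2 fold change of -2.17 (SE 0.18, edgeR adjusted p = 3.99e-07), and remained the highest member there. Tdpoz1 (2.43 and 1.90 TPM) fell by 4.29, Tcstv3 (4.18 and 1.53 TPM) by 4.69 and Tcstv1 (3.33 and 0.45 TPM) by 3.62 on the log2 scale. These partly silenced genes stayed detectable in both morula libraries. Zfp352 (0 and 0.65 TPM) and Zscan4c (0 and 0.49 TPM) were seen in 1 DMSO morula library each. Zscan4f and Tdpoz4 had no count in either DMSO morula library, so they were at least 440-fold and 200-fold lower than in two-cell embryos. Zscan4d was at least 230-fold lower and Tdpoz3 at least 4.65-fold lower, the last bound being small because Tdpoz3 is low from the start. All 6 Zscan4 genes and 7 of 9 Tdpoz genes were called lower. Of 31 genes tested on a list of other two-cell genes, which includes paralogues of the members, 27 were called lower, led by BB287469 (6.52 to 0.005 TPM on average), Usp17le (3.00 TPM to 0) and Tdpoz5 (68.1 to 0.095 TPM), and Pramel6 was called higher (179 to 339 TPM).

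**Figure D2:**
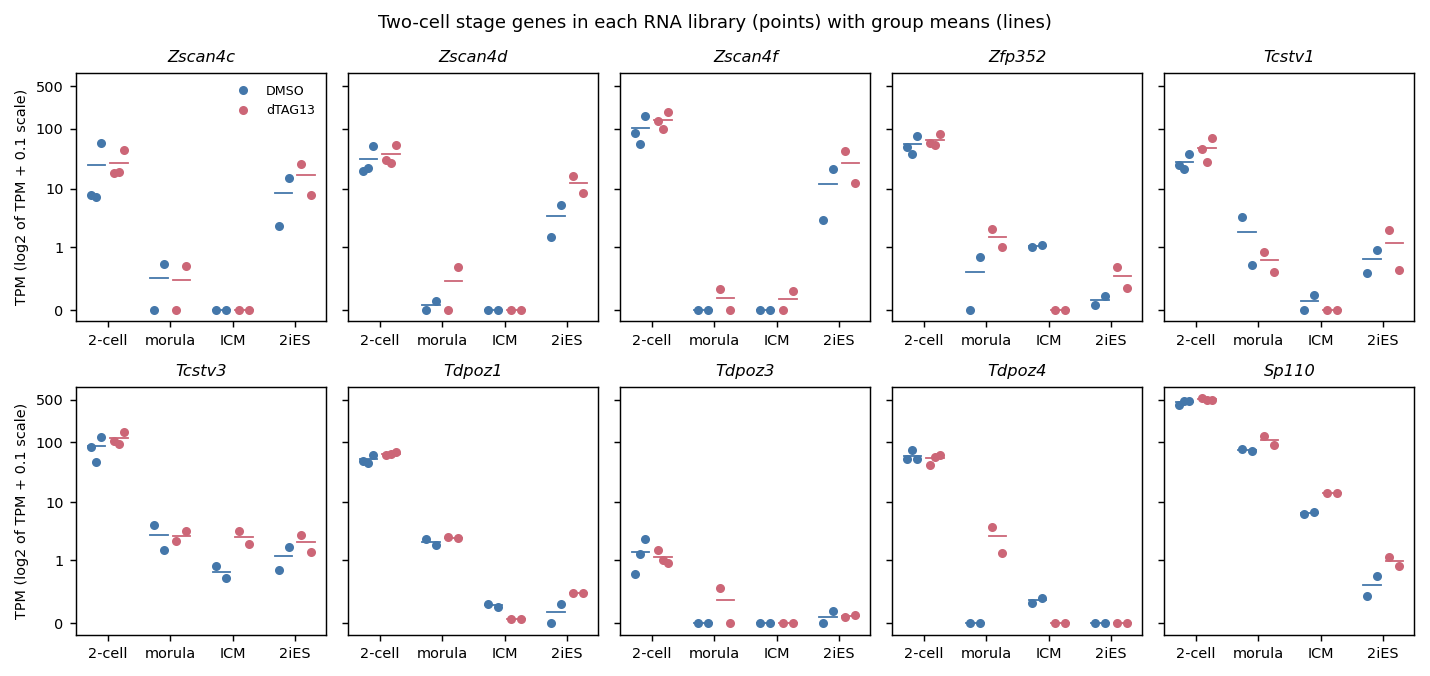
TPM of the 10 members in each of the 18 libraries by stage, on a log2 scale of TPM + 0.1 with ticks at the TPM values; points are libraries and lines are group means, DMSO in blue and dTAG13 in red. By DMSO group mean all 10 members are highest at the late two-cell stage, Sp110 declines in steps through all stages, and the 3 Zscan4 genes return in 2iES cells after reading 0 in the DMSO ICM.

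From the morula to the ICM, 4 members were called lower and none higher in DMSO libraries, against 13.2% of all genes called lower. Sp110 fell further, to 6.36 and 6.88 TPM (log2 fold change -3.85, SE 0.21, edgeR adjusted p = 7.68e-08). Tdpoz1 fell to 0.11 and 0.09 TPM (-4.78, SE 0.53) and Tcstv3 to 0.78 and 0.46 TPM (-2.55, SE 0.70). Tcstv1 was at the floor in ICM, at least 12.8-fold lower, and without DMSO morula replicate 1 neither Tcstv gene passed the test (edgeR adjusted p = 0.168 for Tcstv3 and 0.0642 for Tcstv1). Zfp352 stood at 1.01 and 1.08 TPM in DMSO ICM, above both morula libraries, but the difference did not pass (adjusted p = 0.177 by edgeR). No Zscan4 gene had a count in either DMSO ICM library, which at this depth allows up to 3 counts in libraries of 20818291 and 19246219 read pairs, counting error only.

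In DMSO 2iES cells the Zscan4 genes were present again. Zscan4c stood at 2.35 and 15.1 TPM, Zscan4d at 1.51 and 5.38 TPM and Zscan4f at 3.05 and 21.4 TPM. Against ICM this was at least 206-fold, 81.0-fold and 180-fold higher (edgeR adjusted p = 0.0022, 1.4e-04 and 4.34e-04), and 3 of the 10 members were called higher against 12.0% of all genes. These are the 3 near copies, whose shared reads RSEM divides, so their calls are not separate observations. The 2 libraries differed from each other, DMSO replicate 2 holding 6.41 times as much Zscan4c, 7.01 times as much Zscan4f and 3.56 times as much Zscan4d as replicate 1. Sp110 (0.18 and 0.50 TPM, log2 fold change -4.30) and Zfp352 (0.02 and 0.07 TPM, -3.92) were called lower than in ICM, against 12.7% of all genes; without DMSO 2iES replicate 1 Zfp352 did not pass (edgeR adjusted p = 0.052). Tdpoz4 had no count in any 2iES library. Of the families, 5 of 6 Zscan4 genes were called higher in 2iES cells than in ICM, and none of 9 Tdpoz or 2 Tcstv genes was. Calls within the Zscan4 family are likewise not separate, since its genes share reads.

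At the late two-cell stage, the stage of the burst itself, degradation of GABPA from 6 hpf left no member called. None of the 10 tested was called higher or lower by edgeR, while 0.476% of 17421 genes were called higher and 3.63% lower; none of the 10 had an unadjusted p under 0.05 and DESeq2 also called 0. The median log2 fold change of the members was 0.18, beside 0.02 over all genes, and 8 of 10 were positive. Zscan4f gave 84.9, 55.1 and 165 TPM in DMSO and 132, 97.6 and 191 TPM in dTAG13 embryos (log2 fold change 0.36, 95% confidence interval -0.35 to 1.07). Zscan4c gave 7.99, 7.47 and 58.6 against 18.3, 19.0 and 44.97 TPM (0.09, -1.41 to 1.59). Zscan4d gave 19.6, 22.2 and 51.1 against 30.9, 26.8 and 54.7 TPM (0.20, -0.56 to 0.97). In each of the 3 Zscan4 genes the groups overlapped, and replicate 3 was the highest library of both treatments. Taken by replicate number, every dTAG13 library of Zscan4d and Zscan4f stood above its DMSO counterpart, and for Zscan4c all but replicate 3. Under some alternatives Zscan4f, Tcstv1 and the Zscan4 and Tcstv family totals had an adjusted p below 0.05, always short of a 2-fold change.

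Zfp352 stood at 49.4, 38.6 and 77.1 TPM in DMSO and 57.5, 53.4 and 83.0 TPM in dTAG13 embryos (0.16, 95% confidence interval -0.33 to 0.66). Tcstv1 gave 25.1, 21.8 and 38.1 against 46.6, 27.9 and 71.5 TPM, a log2 fold change of 0.69 whose interval ran from 0.00 to 1.38 (edgeR adjusted p = 0.235). Tcstv3 was at 83.0, 47.4 and 123 against 105, 93.6 and 147 TPM (0.38, -0.23 to 0.99). These genes overlapped between groups in the same way. The groups of Sp110 and Tdpoz1 did not overlap, nor did those of 27.4% of all genes tested. Sp110 gave 414, 484 and 481 against 539, 502 and 503 TPM (0.13, -0.05 to 0.31, edgeR adjusted p = 0.429), and Tdpoz1 49.3, 45.8 and 60.2 against 61.2, 63.9 and 67.3 TPM (0.24, 0.00 to 0.49, adjusted p = 0.235). For both, the interval leaves out a 2-fold change in either direction. Tdpoz4 (51.8, 72.5 and 53.3 against 42.1, 57.4 and 61.7 TPM) and Tdpoz3 had negative estimates of -0.21 and -0.34 with intervals across 0.

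Replicate 3 was the highest library of its group for 8 of 10 members under DMSO and for 8 of 10 under dTAG13, 7 of them in both. The ratio of replicate 3 to the mean of replicates 1 and 2 under DMSO was 7.58 for Zscan4c, 2.45 for Zscan4d, 2.36 for Zscan4f, 2.49 for the low Tdpoz3, 1.75 for Zfp352 and 1.07 for Sp110. Zscan4c had the highest ratio of the 10 members in both treatments (2.41 under dTAG13). Without DMSO replicate 3 Zscan4c passed the test (log2 fold change 1.73, edgeR adjusted p = 0.0208), and without DMSO replicate 1, DMSO replicate 2 or dTAG13 replicate 3 its sign turned. One library stood apart in another way: dTAG13 replicate 1 held 356 TPM summed over 14 macrophage and neutrophil markers, beside 9.13 to 12.3 TPM in the other 5 two-cell libraries, 5 of the 14 having no count in the DMSO group. No member was called without that library. The part of such RNA in the members' levels was not tested.

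**Figure D3:**
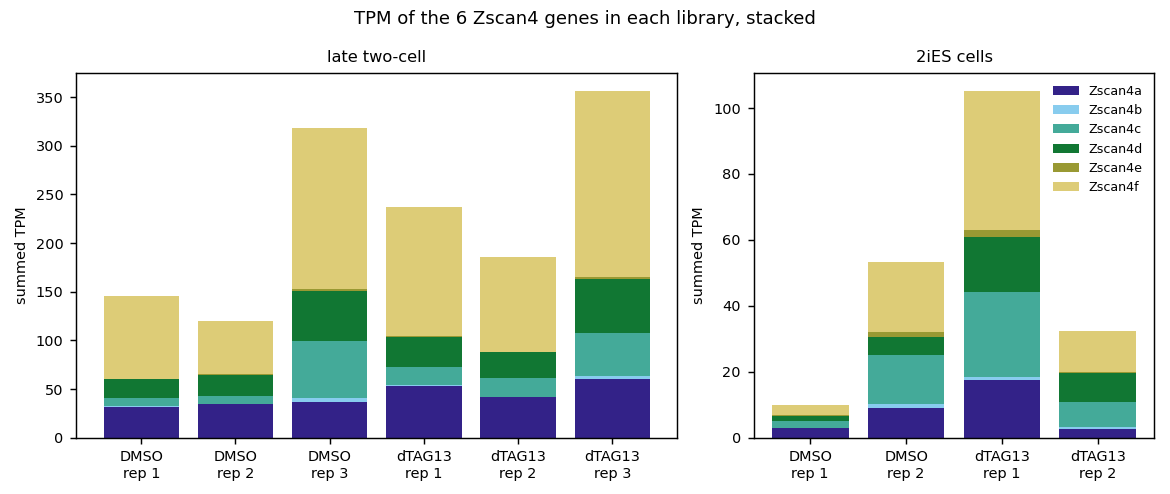
Summed TPM of the 6 Zscan4 genes in each late two-cell (left) and 2iES (right) library, stacked by gene, with separate vertical axes. Replicate 3 is the tallest bar of both two-cell groups, Zscan4f makes up the largest part there, and the 4 stem cell libraries range from 10.1 to 105 TPM without separating by treatment.

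The family totals at the two-cell stage did not pass either. The 6 Zscan4 genes together gave 146, 120 and 318 TPM in DMSO and 237, 186 and 357 TPM in dTAG13 embryos (log2 fold change 0.32, SE 0.31, edgeR adjusted p = 0.633), the 9 Tdpoz genes changed by 0.18 (SE 0.12, adjusted p = 0.447) and the Tcstv pair by 0.48 (SE 0.27, adjusted p = 0.36). Of 32 other two-cell genes 0 were called, with a median log2 fold change of 0.14. Of 19 oocyte and maternal transcripts tested 0 were called, with sums over the list of 2370 to 2640 TPM in DMSO and 2990 to 3490 TPM in dTAG13 embryos. Their part in the members' levels was not tested. Of the upstream regulators, the activator list, which includes the member Zscan4c, held 1 call among 6 tested: Trp53, which encodes p53, was lower (23.2 to 6.18 TPM on average, edgeR adjusted p = 8.78e-05). The whole activator list summed to 1210 to 1360 TPM in DMSO and 853 to 864 TPM in dTAG13 embryos. That fall is larger than the change in Trp53, and its part in the members' levels was not tested. Named after their values were seen, Zscan4a had an adjusted p of 0.0388 by edgeR but changed by less than the fold threshold (34.4 to 51.6 TPM), and Duxf3, the gene of the transcription factor DUX, was at 0.15 TPM in DMSO and 0.347 TPM in dTAG13 embryos and did not pass. Of 18 repressors, which include subunits of chromatin assembly factor 1 and silencing co-factors, 0 were called.

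In morulae 7 members passed the filter on low counts and 1 was called, Tdpoz4, which passed the filter only through the dTAG13 libraries. It had 0 counts in both DMSO libraries and 56.8 and 18.9 counts in the dTAG13 libraries, or 3.91 and 1.39 TPM, at least 11.1-fold higher (edgeR adjusted p = 0.021). In this comparison 0.154% of 13667 genes were called higher and 0.198% lower. The call rests on few reads and was lost without DMSO replicate 1 (adjusted p = 0.0567 by edgeR) or dTAG13 replicate 1 (0.165), and DESeq2 gave the gene no adjusted p. Its close copies share reads with it, Gm5541 holding 48.8% and Tdpoz8 33.7% of its words. The sum of the 9 Tdpoz genes leaves out Gm5541. It was 8.91 and 14.4 TPM in DMSO and 20.9 and 10.8 TPM in dTAG13 morulae, overlapping groups (log2 fold change 0.37, SE 0.29, edgeR adjusted p = 0.6).

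Sp110, the only member at a high level in morulae, stood at 77.7 and 69.8 TPM in DMSO and 128 and 88.3 TPM in dTAG13 libraries. The groups did not overlap, as for 43.6% of all genes tested, and the log2 fold change of 0.45 (SE 0.21) had an edgeR adjusted p of 0.373. Zfp352 gave 0 and 0.65 against 2.06 and 0.99 TPM (2.19, SE 0.84, edgeR adjusted p = 0.287). It was called without DMSO replicate 2 (adjusted p = 0.013 by edgeR), without dTAG13 replicate 2 (0.0275), with the replicate number as a block (0.0188) and without the filter on low counts (0.0118). Tdpoz1 (2.43 and 1.90 against 2.61 and 2.45 TPM), Tcstv1, Tcstv3 and Zscan4c did not pass. Zscan4d, Zscan4f and Tdpoz3 were too low to be tested. Of 12 other two-cell genes tested 2 were called higher, the arginase gene Arg2 (2.66 to 9.52 TPM on average) and Gm2016 (1.78 to 10.4 TPM).

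In the ICM Sp110, Tcstv3 and Zfp352 had enough counts to be tested and were called, where 12.1% of 15840 genes were called higher and 13.2% lower. Tcstv3 and Zfp352 passed the filter only through the group in which they were high, so the number of calls is no result about the members. Sp110 rose from 6.36 and 6.88 TPM in DMSO to 14.4 and 14.2 TPM in dTAG13 ICM (log2 fold change 1.15, SE 0.09, edgeR adjusted p = 1.43e-13). Tcstv3 rose from 0.78 and 0.46 TPM, 9 and 5.85 counts, to 3.31 and 1.95 TPM, 39 and 24.7 counts (2.12, SE 0.43, edgeR adjusted p = 3.38e-05). Zfp352 went the other way, from 1.01 and 1.08 TPM (48.3 and 47 counts) to 0 in both dTAG13 libraries, at least 15.3-fold lower (edgeR adjusted p = 2.60e-11). The groups of each gene did not overlap, nor did those of 84.8% of all genes tested. The other 7 members were not tested: Zscan4f had 0.82 counts in 1 library, Zscan4c, Zscan4d and Tdpoz3 had none, and Tdpoz1 (5 and 4 against 1.01 and 1 counts), Tdpoz4 (2.56 and 3.03 against 0 counts) and Tcstv1 were near the floor.

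The 2 libraries of an ICM group were unusually alike. The median variation between them was 1.63 times the counting error in DMSO and 1.69 times in dTAG13, compared with 2.84 to 16.1 times in the groups of the other stages, and 12388 of 15840 genes had an unadjusted p under 0.05. The p-values in the ICM therefore measure a very small spread. Markers of other cell types also moved with treatment there. Of 10 trophectoderm markers 9 were called higher, their summed level going from 98.5 to 108 TPM in DMSO to 1020 to 1030 TPM in dTAG13 with no marker at 0. Of 10 epiblast markers 5 were called lower (887 to 911 against 531 to 537 TPM), and of 10 primitive endoderm markers 1, Dab2, was called higher, while the list summed to 531 TPM in DMSO and 1050 to 1060 TPM in dTAG13. The cumulus and granulosa list (1 of 5 tested higher and 1 lower) summed to 89.2 to 90.5 TPM in DMSO and 174 to 178 TPM in dTAG13, with 7 and 8 of its 14 genes at 0. The macrophage and neutrophil list (1 of 5 lower) and the fibroblast list (1 of 4 higher and 1 lower) gave few calls. The part of these cells in the levels of Sp110, Tcstv3 and Zfp352 was not tested.

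Among relatives in the ICM, the sum of the 9 Tdpoz genes fell from 4.05 and 3.57 TPM to 2.28 and 1.94 TPM (log2 fold change -1.17, SE 0.23, edgeR adjusted p = 2.19e-05), with Tdpoz8 going from a mean of 1.01 TPM to 0. The Tcstv sum was higher (2.03, SE 0.42, adjusted p = 5.09e-05 by edgeR) but did not pass in 1 fit of all 18 libraries (adjusted p = 0.0618 by edgeR). Of 18 other two-cell genes tested 7 were called higher and 2 lower. Usp17le (0.03 to 2.04 TPM on average), Gm2056 (0.205 to 10.5 TPM) and Arg2 (0.33 to 8.37 TPM) led those higher, and the lower ones were Tdpoz8 and Gm8300 (5.02 to 1.94 TPM). Of 4 activators tested, Dppa4, a chromatin protein that promotes Dux expression (181 to 51.1 TPM), and Trp53 (97.6 to 32.5 TPM) were called lower. Of 18 repressors, 2 were lower, Chaf1b, a chromatin assembly factor 1 subunit (57.2 to 18.8 TPM), and Dnmt1, the maintenance DNA methyltransferase (17.3 to 7.02 TPM).

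In 2iES cells 7 members passed the filter and 2 were called higher, Zscan4d and Sp110, beside 12.4% of 15511 genes called higher and 15.6% called lower, that is 1924 and 2415 genes, or 2467 and 1994 with upper-quartile scaling. Sp110, and Tdpoz1, which was not called, passed the filter only through the dTAG13 libraries, where they were high. The number of calls is therefore no result about the members. Zscan4d stood at 1.51 and 5.38 TPM in DMSO and 16.5 and 8.58 TPM in dTAG13 cells (log2 fold change 1.93, SE 0.57, edgeR adjusted p = 0.0256; DESeq2 adjusted p = 0.0723). Sp110 stood at 0.18 and 0.50 TPM against 1.17 and 0.78 TPM, 6.76 and 16.5 counts against 46.3 and 28.4 (1.90, SE 0.49, edgeR adjusted p = 0.0155). The groups of both genes did not overlap, nor did those of 77.9% of all genes tested, and Sp110 did not pass without dTAG13 replicate 1 (adjusted p = 0.0943 by edgeR). Zscan4c (2.35 and 15.1 against 25.8 and 7.82 TPM) and Zscan4f (3.05 and 21.4 against 42.3 and 12.4 TPM) overlapped between groups and did not pass, with log2 fold changes of 1.01 (95% confidence interval -0.96 to 2.98) and 1.28 (-0.70 to 3.27). With 1 library left out these ran from -0.117 to 2.914 for Zscan4c and from 0.154 to 3.203 for Zscan4f, and Zscan4f passed without the filter on low counts (1.209).

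Of the low members tested, Tcstv3, Tcstv1 and Tdpoz1 did not pass. Tcstv3 gave 0.66 and 1.71 against 2.75 and 1.43 TPM (1.06, SE 0.52), Tcstv1 0.31 and 0.88 against 2.00 and 0.36 TPM (1.14, SE 0.83), and Tdpoz1 0 and 0.11 against 0.22 and 0.22 TPM (1.96, SE 0.97). Zfp352, with 1 and 5 against 28 and 7 counts, was too low to be tested. The libraries ranked alike across genes: dTAG13 replicate 1 was highest for 7 of 10 members and DMSO replicate 1 lowest for 9 of 10. The Zscan4 total was 10.1 and 53.3 TPM in DMSO and 105 and 32.4 TPM in dTAG13 cells (log2 fold change 1.197, SE 0.76, edgeR adjusted p = 0.219). This estimate ran from 0.107 to 2.784 with 1 library left out, and the total passed without the filter on low counts (1.121). How many members pass depends on single libraries, from 6 called higher without DMSO replicate 2 to 1 without dTAG13 replicate 1.

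Of 24 other two-cell genes tested in 2iES cells 2 were called higher, Arg2 (1.68 to 4.67 TPM on average) and BB287469 (1.96 to 9.07 TPM), and 2 lower, Pramel6 (12.9 to 3.24 TPM) and Pramel7 (6.58 to 2.68 TPM). Of 5 activators, the member Zscan4c among them, 0 were called. Of 18 repressors 5 were called lower, among them Chaf1b (47.0 to 8.98 TPM), the acetyltransferase gene Kat5 (4.83 to 1.08 TPM) and Ehmt2, an H3K9 methyltransferase gene (12.3 to 3.62 TPM), and 1 was called higher, Atf7ip (3.52 to 10.6 TPM). Markers of other cells moved here too: 2 of 5 tested cumulus and granulosa genes were called higher, Tnfaip6 (0.50 to 7.96 TPM) and Serpine2 (9.41 to 123 TPM), with sums over 14 genes of 16.7 to 18.1 TPM in DMSO and 138 to 140 TPM in dTAG13. So were 2 of 5 tested primitive endoderm genes, with sums of 3.67 to 5.98 TPM in DMSO and 5.99 to 6.37 TPM in dTAG13. Their part in the members' levels was not tested.

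**Figure D4:**
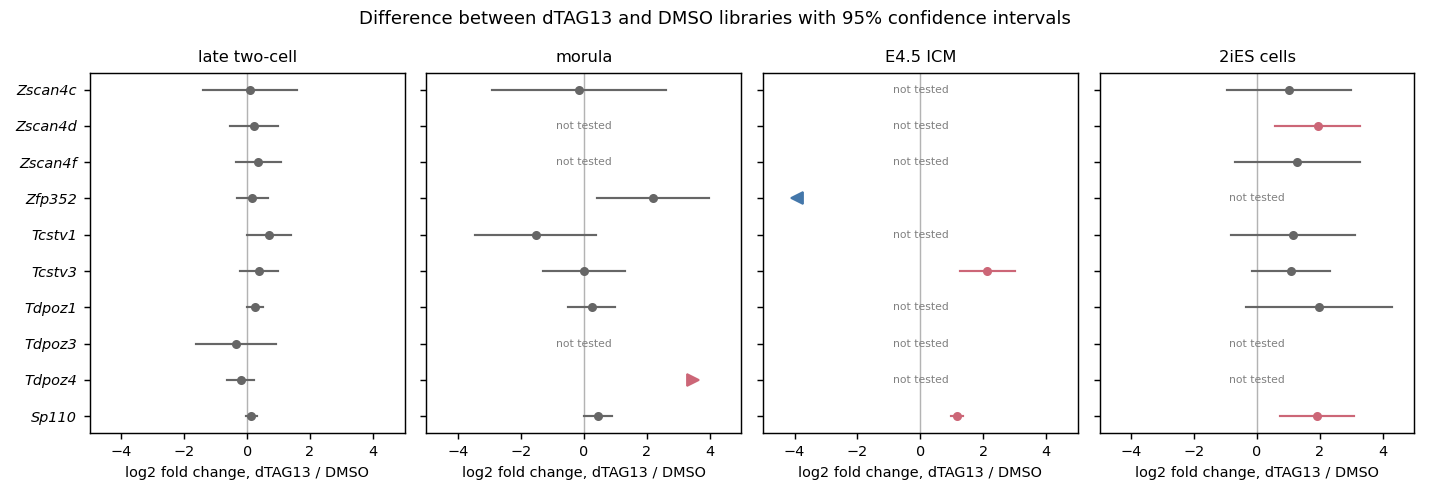
Log2 fold change of dTAG13 over DMSO for each member in the 4 stages, with 95% confidence intervals from edgeR; red and blue mark calls higher and lower, grey no call, and a triangle marks a lower bound where 1 group is at the floor. No member is called in two-cell embryos, 1 in morulae (Tdpoz4), 3 in ICM (Sp110, Tcstv3 and Zfp352) and 2 in 2iES cells (Zscan4d and Sp110).

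Whether the response to dTAG13 differed between adjacent stages was tested as an interaction in 1 edgeR fit of all 18 libraries (21915 genes), with a call at an adjusted p below 0.05 and a difference of at least 2-fold. From two-cell embryos to morulae the response differed for Tdpoz4 (edgeR adjusted p = 6.17e-04), against 3.53% of all genes in that direction. Between morula and ICM it differed for Zfp352 (4.74e-04) and Tdpoz4 (0.00226), against 7.97%. Between ICM and 2iES cells it differed for Zfp352 (0.00111) and Tdpoz1 (0.0219), against 8.12%. The difference for Tdpoz1 did not pass with the replicate block (edgeR adjusted p = 0.0524), without any 1 of the 4 ICM libraries (0.0615 to 0.0947) or without 2iES dTAG13 replicate 1 (0.0508). Each of these rests on a group at or near 0 counts, so no size is given. For Sp110, whose estimate was positive in all 4 stages, no interaction passed (edgeR adjusted p = 0.309, 0.0927 and 0.172). The Zscan4 genes gave no information on morula or ICM, where they were at or near 0.

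The genes most like 5 of the members over the 18 libraries were picked by Pearson's r of log2(TPM + 1) among genes with a mean of at least 10 TPM in 1 group, outside its own family. For Zscan4d they were Serpini1 (r = 0.967), Dkc1 (0.965) and Nrn1l (0.962). For Zfp352 they were Nufip2 (0.995), Gm5286 (0.994) and Gm10696 (0.994), and for Tcstv3 Ankrd44 (0.987), Marf1 (0.986) and Nexn (0.986). For Tdpoz3 they were Gm32717 (0.960), Gm6367 (0.948) and Oaz3 (0.945). For Sp110 they were C130026I21Rik (0.997), Gm15753 (0.995) and Osbpl6 (0.994), of which C130026I21Rik shared 7.5% and Gm15753 9.3% of the words of Sp110. The points share their stages, and for Zfp352, Tcstv3 and Tdpoz3 the coefficients mostly describe the step from two-cell embryos to all later libraries. Sp110 also fell at each later stage and Zscan4d returned in 2iES cells, so their coefficients describe those steps too.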

How the data were processed

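RNA was reverse transcribed and amplified with SMART-Seq v4, made into libraries with Nextera XT, which does not keep strand, and sequenced as paired 75-base reads. Per the study's methods, the authors trimmed reads with Trimmomatic (0.39 per the submitters' processing notes), aligned them with STAR to GRCm38 and ran RSEM. The authors deposited for each library, per gene, an expected count, which divides reads shared by copies, the length-corrected TPM and FPKM, and RSEM's own error estimates, which were not used in tests. Gene names were taken from GENCODE M21 for 55144 of 55385 identifiers. The members and lists were chosen with earlier results of these data known.

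Expected counts were rounded, genes with at least 10 counts in as many libraries as the smaller group were kept, and edgeR 4.0.16 (R 4.3.3) fitted a quasi-likelihood model per stage after TMM scaling. Family totals, DMSO libraries of adjacent stages and stage-by-treatment differences were fitted the same way. On counts simulated for the two-cell comparison (17045 genes), 94 of 100 genes changed by 2 on the log2 scale and 10 of 100 changed by 1 had an adjusted p below 0.05, as did 4 unchanged genes. For a change of 1 it was 32 of 100 in morulae, 90 in ICM and 45 in 2iES cells. Every simulated gene had the same spread, so these shares do not carry over to members with a wider one, such as Zscan4c (SE 0.676 in two-cell embryos). Alternatives were library totals, upper-quartile scaling, DESeq2 1.42.0, no filter, no thresholds, thinning, a replicate block, 1 fit of all 18 libraries and leaving out each library. The text names all 10 members, of each list the called genes that moved most, at most 3 up and 3 down, and, for likeness, 3 genes for each of 5 members. The symbol Dux was not matched in the tables and Duxf3 was used. Totals per library ranged from 9457933 to 27660132, and floors cover counting error only. The chromatin libraries of the series were not analysed here.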

Additional observations from a re-analysis of the deposited data

Results flagged for a closer look

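Differences in the dTAG13 response between adjacent stages were found for 3 members by the interaction term of the edgeR fit over 18 libraries. For Zfp352 the response in ICM, where the counts went from 48.3 and 47 to 0, differed from that in morulae, where they went from 0 and 19 to 66 and 29.9 (edgeR adjusted p = 0.000474), and from that in 2iES cells, with 1 and 5 against 28 and 7 counts (adjusted p = 0.00111). For Tdpoz4, seen in dTAG13 morulae with 56.8 and 18.9 counts and in no DMSO morula, the response differed from that in two-cell embryos (edgeR adjusted p = 0.000617) and from that in ICM, with 2.56 and 3.03 against 0 counts (adjusted p = 0.00226). For Tdpoz1 the response in ICM, 5 and 4 against 1.01 and 1 counts, differed from that in 2iES cells, 0 and 8 against 14.9 and 12.4 counts (edgeR adjusted p = 0.0219), but it did not pass with the replicate block (0.0524), without any 1 of the 4 ICM libraries (0.0615 to 0.0947) or without 2iES dTAG13 replicate 1 (0.0508). In all 5 comparisons at least 1 group was at or near 0, and what lies behind them was not tested.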

How the results depend on the processing

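Of the alternatives tried for single members, 563 left direction and call as they were, 23 brought a difference past the threshold, 9 took it below and 19 turned its sign. The ICM calls of Sp110, Tcstv3 and Zfp352 and the 10 lower calls from two-cell embryos to morulae held under every alternative run that gave an adjusted p. The cause of the changes below was not tested unless stated. In 2iES cells Zscan4f was also called without the filter (log2 fold change 1.209). Between DMSO 2iES cells and ICM Tcstv3 was also called higher by DESeq2 (1.539) and without the filter (1.565). Other changes in the number of members called were as follows. In morulae 1 member was higher, against 2 without the filter and 2 with the replicate block, and 0 to 2 when 1 library was left out. In two-cell embryos 0 were higher, and 0 to 1 with 1 library left out. In 2iES cells 2 were higher, against 1 by DESeq2, 5 with a crossed replicate block, chosen after seeing the data because same-numbered libraries there correlated at -0.241, and 1 to 6 with 1 library left out. Between DMSO ICM and morulae 0 were higher, against 1 without the filter and 0 to 1 with 1 library left out, and 4 lower, against 2 to 4. Between DMSO 2iES cells and ICM 3 were higher, against 3 to 4 with 1 library left out, and 2 lower, against 1 to 2. For the differences of response, two-cell embryos against morulae gave 0 higher and 1 lower, against 1 and 2 without the filter and 1 to 2 lower with 1 library left out. Morulae against ICM gave 0 lower, against 1 by DESeq2 and 1 without the filter. ICM against 2iES cells gave 2 lower, against 1 with the replicate block and 1 to 3 with 1 library left out: 1 without any 1 of the 4 ICM libraries or without 2iES dTAG13 replicate 1, Tdpoz1 being lost. The replicate block changed no other count of members. Same-numbered two-cell libraries correlated weakly in their deviations from the group means (r = 0.056, 0.123 and 0.104 over 12012 genes), each best with its own number, and morula libraries at 0.03, so the numbers were not taken as pairs.

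Over all genes, the calls in morulae went from 21 higher and 27 lower to 106 and 139 without the filter, 106 and 142 with the replicate block, 44 and 66 by DESeq2 and 34 and 76 with library totals. In two-cell embryos the 83 higher calls became 180 without the filter, 132 by DESeq2 and 125 with upper-quartile scaling. With 1 library left out the morula counts ranged from 17 to 234 higher and 25 to 132 lower, the most without DMSO replicate 2, and the two-cell higher calls from 45 to 100.

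As log2 fold changes, the Tcstv total in ICM was 2.043 in 1 fit of all 18 libraries (edgeR adjusted p = 0.0618). In 2iES cells without the filter the Zscan4 total was 1.121 and the Tcstv total 1.016, and with the crossed block 1.389 and 1.061, all past the threshold. With 1 library left out, the Zscan4 total ranged from 0.107 to 2.784 and the Tcstv total from 0.147 to 1.893 in 2iES cells, and from -1.769 to 3.492 and -1.177 to 0.702 in morulae, where adding the pseudogenes turned Zscan4 to -0.157. Tcstv3 in morulae turned to -0.077 with library totals, -0.019 with upper-quartile scaling and -0.001 without the filter. Signs also turned with 1 library left out. In two-cell embryos the ranges were -0.439 to 1.728 for Zscan4c, -0.153 to 0.742 for Zscan4d, -0.04 to 0.463 for Zfp352 and -0.724 to 0.204 for Tdpoz3. In morulae they were -2.588 to 0.382 for Tcstv1, -5.84 to 5.721 for Zscan4c and -0.516 to 0.806 for Tcstv3, and in 2iES cells -0.117 to 2.914 for Zscan4c and -0.603 to 2.1 for Tcstv1. For Tdpoz1 between DMSO 2iES cells and ICM the range was -5.022 to 0.846. Where an arm was left with 1 library, that library was assumed to vary like the others. Upper-quartile scaling moved the median of all genes to 0.142 in two-cell embryos, 0.109 in ICM and 0.213 in 2iES cells. Few counts limit the members in morulae and ICM.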
